A study of Mus musculus with 9 samples.

Results

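Lipid uptake and lipid droplet genes were followed through the maturation of primary mouse megakaryocytes, the large marrow cells that shed platelets. They were 10 of the 12393 genes with a probe set on the arrays: Lpl, Cd36, Fabp4, Fabp5, Plin2, Hilpda, Plpp3, Abca1, Abcg1 and Pparg. Every probe set that the platform annotation paired with exactly 1 of these genes was taken, which gave 20 of 22690 probe sets. The 10 genes were chosen by what they are known to do and with measured values of these arrays in view, chiefly the MK6 against MKP difference. Their MK6 minus MKP differences, and all differences that share MKP or MK6 arrays, are therefore given as descriptions: no single gene's p-value is printed for them, and nothing is read from their counts of calls. The values were fluorescence intensities of Affymetrix MOE430A arrays, scaled to a common trimmed mean and called the scaled signal below.

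Cells from bone marrow or fetal liver had been grown with thrombopoietin, the cytokine of this lineage. The cultures were then sorted for high surface CD41, an integrin chain that marks megakaryocytes, and by forward scatter, a measure of cell size. There were 4 stages: MKP, MK3 and MK4 with 2 arrays each, and MK6 with 3. Sorting was on culture days 3, 4 and 6, which match the numbers in the names MK3, MK4 and MK6; no day is given for MKP. All stages shared the thrombopoietin culture. Which tissue fed which array, the mouse strain, age and genotype, and whether cells were pooled are not given in the labels. Nor do they say whether arrays of one stage stem from different cultures, and a p-value here reflects only the spread among these arrays, which may be technical. MK6 replicate 1 is the array titled without a number, and replicates 2 and 3 are those titled replicate1 and replicate2.

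Some arrays stood apart. All 14 megakaryocyte markers on the array passed the filter used for testing (a scaled signal above 46.7 on at least 2 arrays), and Itga2b, which encodes CD41, read 977 to 3678 on the 9 arrays. The summed megakaryocyte marker signal on MK3 replicate 1 was 11458, at the level of the MKP arrays (11592 and 12063) and below the range of 19263 to 26398 on the remaining 6. The same array had the highest summed signal of 23 macrophage markers, 47908, followed by MK6 replicate 1 at 46634. RNA quality also differed, with a 3' to 5' beta-actin ratio of 0.957 to 1.09 before MK6 and of 1.49, 1.33 and 3.21 on MK6 replicates 1, 2 and 3. For each tested lipid gene, on its probe set of highest mean, the MK6 minus MKP difference is given with and without MK6 replicate 1. Where its MK3 minus MKP difference is given, it is given with and without MK3 replicate 1. Other differences, and those of other genes, rest on all arrays unless stated. Calls from MKP to MK6 that were lost without MK6 replicate 3 are named, for the lipid genes and the further genes of the 9 lists below. No refit without that array is given for cell type markers or for MK6 against MK3.

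Lipoprotein lipase, the product of Lpl, frees fatty acids from circulating triglyceride, Cd36 carries long-chain fatty acids across the plasma membrane, and the fatty acid binding proteins Fabp4 and Fabp5 hold them in the cytoplasm. Surplus fatty acid is esterified and stored in lipid droplets, whose surface carries Plin2 and, in stressed or hypoxic cells, Hilpda, an inhibitor of the lipase that empties them. Excess cholesterol leaves through the transporters Abca1 and Abcg1, Plpp3 dephosphorylates lysophosphatidic acid and related lipid phosphates at the cell surface, and the nuclear receptor Pparg drives many of these genes in fat cells and macrophages. Platelets carry Cd36 on their surface.

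Promoter windows of 300 bases, 250 before and 50 after an annotated start, were available from RefSeq (GRCm38.p6) for 6 of the 10 genes, in 9 windows. They are shown because textbook regulators of these genes read short known motifs: hypoxia-inducible factors read ACGTG, and Pparg and the sterol receptors read AGGTCA half-sites in pairs with their partner. Both strands were searched. Of all 32851 windows in the table, 19.6% held ACGTG and 16.3% held AGGTCA, against 3 and 4 of the 9 windows here. The paired motif of Pparg, AGGTCANAGGTCA, was in 0.0396% of all windows, and that of the sterol receptors, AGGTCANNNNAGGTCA, in 0.0152%; neither was in the 9 windows. The stretches around ACGTG and around the half-sites of Cd36 and Plin2 follow, each on the gene's own strand with the match in capitals.
Hilpda, second start, chr6:29272571-29272599, plus strand: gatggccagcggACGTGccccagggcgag
Plin2, chr4:86670046-86670075, minus strand: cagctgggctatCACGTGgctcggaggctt
Abca1, chr4:53160025-53160054, minus strand: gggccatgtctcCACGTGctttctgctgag
Cd36, chr5:17836107-17836136, minus strand: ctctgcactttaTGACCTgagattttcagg
Plin2, chr4:86670260-86670289, minus strand: tttcaggaccccTGACCTaagtcagacagc
In Plin2 and Abca1 the match was the palindrome CACGTG, which holds ACGTG on both strands in overlap, and TGACCT is AGGTCA read from the other strand. The first base of the capitals lay 43, 4 and 147 bases before the start in Hilpda, Plin2 and Abca1, and 228 and 218 bases before it at the half-sites of Cd36 and Plin2. The other 2 half-site matches were in windows of Pparg, and the window of Plpp3 held neither motif. A match describes the letters of these windows and says nothing of binding.

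The 10 genes did not move as a block. By stage mean of log2 signal, 4 of the 9 tested genes were highest in MK3 (Lpl, Fabp4, Fabp5 and Abcg1) and 5 in MK6 (Cd36, Hilpda, Plpp3, Plin2 and Abca1). Over all 9397 tested genes, 16.4% were highest in MK3 and 44.1% in MK6. For Cd36, Abca1, Fabp5 and Abcg1 the MK3 and MK6 arrays overlapped, so their highest stage is uncertain. Their MK6 minus MK3 differences were 0.49 ± 0.41, 0.57 ± 0.42, -0.63 ± 0.41 and -0.13 ± 0.32. The highest stage also changed with the probe set. A second Cd36 set had its highest mean in MK3 (287, against 253 in MK6), and the dimmer Abca1 sets had theirs in MK4 (354 and 129). MKP was the lowest stage for all but Hilpda, which was lowest in MK3, and MKP was lowest for 30.8% of all tested genes. Log2 values here are log2(scaled signal + 15.2), so differences on that scale understate those of dim genes. In these bulk samples a smaller share of a kind of cell and less RNA per cell cannot be told apart.

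**Figure D1:**
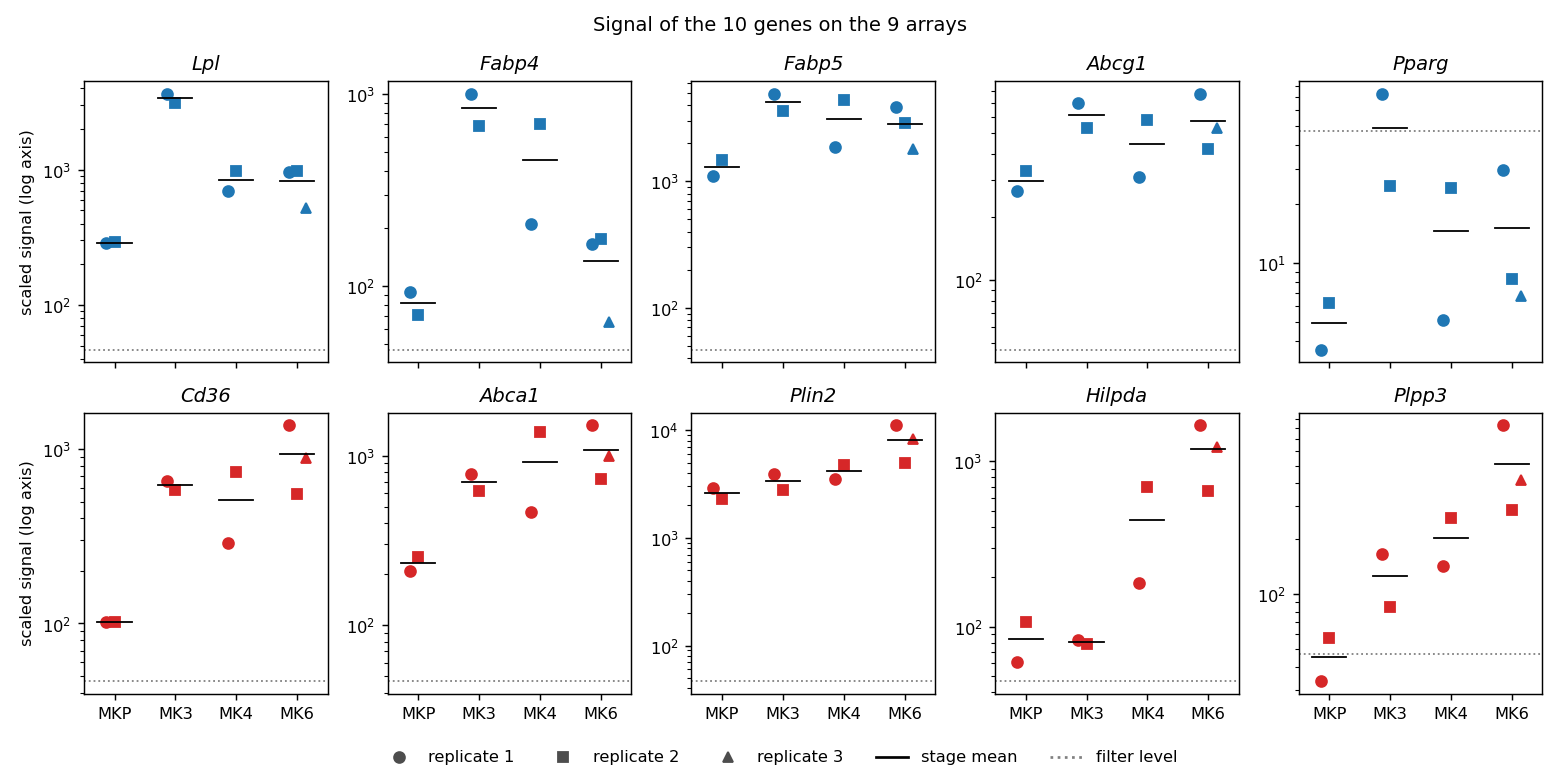
Scaled signal (log axis) of each of the 10 genes on the 9 arrays by stage, 1 point per array, with genes whose mean is highest in MK3 in blue and in MK6 in red; symbols mark the replicate, the horizontal bar the stage mean and the dotted line the filter level of 46.7. Lpl is highest on both MK3 arrays, and Fabp4 has its highest mean in MK3, with MK4 replicate 2 (697) above MK3 replicate 2 (682). Hilpda reaches 663 to 1647 in MK6 from 61.4 to 106 in MKP, and Pparg is above the filter on 1 array.

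Lpl, best known from fat, muscle and macrophages, was low in MKP and highest in MK3. Its scaled signals were 286 and 293 in MKP, 3653 and 3120 in MK3, 698 and 980 in MK4, and 969, 986 and 519 in MK6. Both MK3 arrays lay above all 7 others and both MKP arrays below all others, while MK4 and MK6 overlapped. The mean scaled signal in MK3 was 11.7 times that in MKP, a difference of 3.48 ± 0.33 (SE of the fit) on the log2 scale, and 3.36 without MK3 replicate 1. From MK3 to MK4 the difference was -2.01 ± 0.33, with an adjusted p of 0.365 in limma, so it did not pass although the arrays did not overlap. The difference between MK6 and MK3 was -2.07 ± 0.30, and that between MK6 and MKP 1.41 ± 0.30, or 1.26 without MK6 replicate 1. A second Lpl probe set gave the same order, with 76.3 and 82.9 in MKP, 976 and 826 in MK3, 212 and 395 in MK4, and 352, 318 and 102 in MK6. Its MK6 minus MKP difference of 1.36 was not called.

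Fabp4, a cytoplasmic fatty acid carrier best known from adipocytes and macrophages, shared the MK3 maximum but not the later level. Its signals were 93.7 and 70.6 in MKP, 1005 and 682 in MK3, 211 and 697 in MK4, and 165, 176 and 65.2 in MK6. MK4 replicate 2 lay within the MK3 range, and MK6 overlapped MKP. The MK3 minus MKP difference was 3.13 ± 0.53, or 2.85 without MK3 replicate 1, the MK6 minus MK4 difference -1.52 ± 0.48, and the MK6 minus MKP difference 0.54 ± 0.48, or 0.36 without MK6 replicate 1. The other Fabp4 probe sets were dimmer. One of them read 11.3 and 46.7 in MKP, 299 and 170 in MK3, 103 and 229 in MK4, and 54.5, 65.0 and 20.2 in MK6, another stayed between 13.2 and 78.7 on all arrays, and the last between 3.45 and 51.5, too dim to be tested.

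Fabp5, the carrier with the widest tissue distribution of the pair, varied less. It read 1093 and 1479 in MKP, 4916 and 3625 in MK3, 1876 and 4370 in MK4, and 3890, 2889 and 1789 in MK6. The MKP arrays were below all others, and the later stages overlapped one another. The difference from MKP was 1.72 ± 0.45 in MK3, or 1.5 without MK3 replicate 1, and 1.09 ± 0.41 in MK6, or 0.83 without MK6 replicate 1. On a second probe set the MK6 minus MKP difference was 0.70 and the MK3 minus MKP difference 1.86.

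Cd36 was lowest in MKP and stayed above it at every later stage. The probe set used read 102 on both MKP arrays, 657 and 581 in MK3, 288 and 734 in MK4, and 1366, 555 and 883 in MK6. No later array reached down to MKP, and MK3, MK4 and MK6 overlapped. The mean scaled signal in MK6 was 9.14 times that in MKP, a log2 difference of 2.92 ± 0.41, or 2.61 without MK6 replicate 1; the MK3 minus MKP difference was 2.43 ± 0.44, or 2.34 without MK3 replicate 1. A second Cd36 probe set gave a smaller MK6 minus MKP difference of 1.86, with 34.3 and 85.4 in MKP and 272, 152 and 336 in MK6, and its MK3 values (347 and 226) overlapped those of MK6. The remaining set, too dim to be tested, read 11.7 to 39 on 8 arrays and 148 on MK6 replicate 1.

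Hilpda stood at its lowest in both MKP and MK3 and was high only later. Its signals were 61.4 and 106 in MKP, 82.9 and 78.7 in MK3, 182 and 703 in MK4, and 1647, 663 and 1223 in MK6. All MK4 and MK6 arrays lay above all MKP and MK3 arrays, and MK4 replicate 2 lay inside the MK6 range. The mean scaled signal in MK6 was 14.1 times that in MKP and 14.6 times that in MK3. On the log2 scale the MK3 minus MKP difference was -0.0066 ± 0.55, or -0.038 without MK3 replicate 1, the MK4 minus MK3 difference 1.97 ± 0.55 (adjusted p = 0.999 in limma), and the MK6 minus MKP difference 3.54 ± 0.50. The last was 3.25 without MK6 replicate 1. The spread within MK4 was wide, at a mean log2 signal of 8.56 ± 1.32 (SD, n = 2), against 10.1 ± 0.66 (SD, n = 3) in MK6.

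Plin2, the coat protein found on lipid droplets of most cells, was already abundant on its probe set in MKP. It read 2889 and 2283 in MKP, 3873 and 2804 in MK3, 3513 and 4756 in MK4, and 11061, 4911 and 8274 in MK6. MK6 lay above all earlier arrays, MK6 replicate 2 only by a little, and MKP overlapped MK3. The MK6 minus MKP difference was 1.57 ± 0.36, or 1.31 without MK6 replicate 1. The successive steps were 0.36 ± 0.39 (0.13 without MK3 replicate 1), 0.31 ± 0.39 and 0.90 ± 0.36.

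Plpp3 followed a like course at a lower signal, with 33.4 and 57.2 in MKP, 165 and 84.2 in MK3, 142 and 259 in MK4, and 828, 287 and 416 in MK6. Every MK6 array exceeded every earlier array, and the MKP arrays were below all others. The MK6 minus MKP difference was 3.01 ± 0.44, or 2.61 without MK6 replicate 1. A second probe set gave 42 and 57.4 in MKP, 192 and 103 in MK3, 128 and 226 in MK4, and 859, 286 and 279 in MK6, with an MK6 minus MKP difference of 2.73.

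Abca1, which loads cholesterol and phospholipid onto apolipoprotein A-I, depended on the probe set. The brightest set read 209 and 254 in MKP, 778 and 618 in MK3, 468 and 1374 in MK4, and 1509, 732 and 1000 in MK6, with MKP below all others and the later stages overlapping. Its MK6 minus MKP difference was 2.10 ± 0.42, or 1.83 without MK6 replicate 1. The other 2 sets gave 0.27 and 0.60 and were not called. One of these read 171 and 127 in MKP and 415, 130 and 106 in MK6, so that its stages overlapped, and the mean of the 3 sets gave 0.99.

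Abcg1, which passes cholesterol to mature high-density lipoprotein, had the narrowest range of stage means of the 9 tested genes, 1.003 on the log2 scale. It read 265 and 331 in MKP, 698 and 532 in MK3, 311 and 580 in MK4, and 772, 422 and 530 in MK6. MK4 replicate 1 lay between the MKP arrays, and the other arrays of MK3, MK4 and MK6 lay above both. The difference from MKP was 1.003 ± 0.35 in MK3, or 0.81 without MK3 replicate 1, and 0.88 ± 0.32 in MK6, or 0.65 without MK6 replicate 1.

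Pparg was too dim to be tested. Its 1 probe set read 3.60 and 6.20 in MKP, 72.6 and 24.7 in MK3, 5.08 and 23.9 in MK4, and 29.7, 8.26 and 6.76 in MK6. MK3 replicate 1, the array with the highest macrophage marker sum, was the only one above the filter, and no difference is given for this gene.

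Of the 9 tested genes, 6 were called higher in MK6 than in MKP by limma (Lpl, Cd36, Hilpda, Plpp3, Plin2 and Abca1), at a Benjamini-Hochberg adjusted p below 0.05 over all tested genes, and none lower. By the same test 2.76% of all tested genes were called higher, 2.94% lower and 5.69% in either direction, and since this comparison entered the choice of the genes, nothing is read from the count. In 8 of the 9 the MK6 arrays all lay above the MKP arrays, as for 24.5% of all tested genes; Fabp4 overlapped. None had all MK6 arrays below MKP, as 18.8% of all tested genes did. The median difference over the 9 was 1.57, against 0.13 over all tested genes. Leaving out MKP replicate 1 or MKP replicate 2 ended all 6 calls, with 0.0319% and 0.223% of all tested genes then called, and leaving out MK6 replicates 1 and 3 together left 1, Lpl, with 0.521% called. Plin2 and Abca1 were not called without MK6 replicate 3, at differences of 1.52 and 2.12. On unscaled values Lpl (1.05), Plin2 (1.21) and Abca1 (1.74) were not called. Lpl was not called with arrays scaled to a common median (1.28), nor were Lpl (1.38) and Abca1 (0.99) with the mean of their probe sets.

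**Figure D2:**
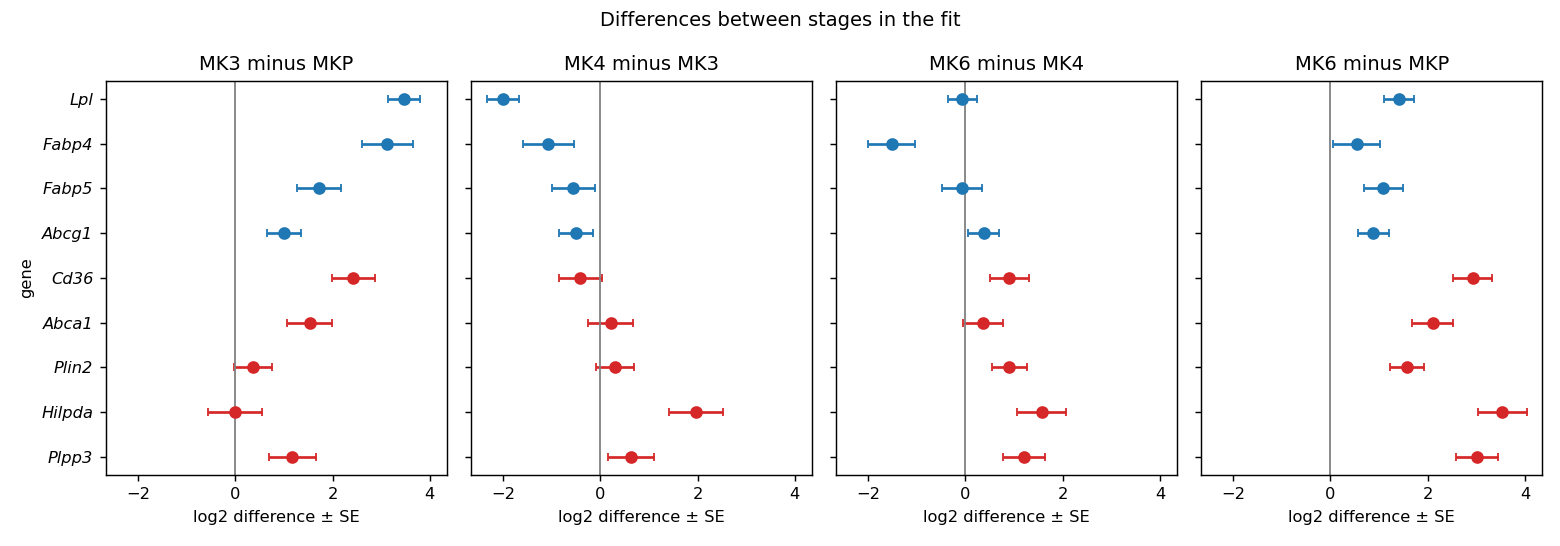
Log2 difference with its standard error (bars) for the 9 tested genes in each of 4 comparisons, with genes highest in MK3 in blue and those highest in MK6 in red. The MK6 minus MKP differences run from 0.54 (Fabp4) to 3.54 (Hilpda), and the MK4 minus MK3 differences from -2.01 (Lpl) to 1.97 (Hilpda).

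In the first step, MK3 against MKP, Lpl alone among the 9 was called higher, 1 of 5 genes in all (0.0532%), and 7 of the 9 had an unadjusted p below 0.05, against 9.91% of all tested genes. The arrays of 7 did not overlap and were higher in MK3, as for 19.4% of all tested genes; Hilpda and Plin2 overlapped. This step shares the MKP arrays with the whole course, so its counts are not separate evidence. Without MK3 replicate 1 Lpl was not called either.

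MK4 against MK3 shares no array with MK6 against MKP, the comparison chiefly used in the choice. The fit still takes each gene's variance from all 9 arrays, and values of these arrays were in view, so the step is not an independent check. None of the 9 genes was called by limma, and 2 had an unadjusted p below 0.05, Hilpda upward and Lpl downward. Over all tested genes 1 was called (0.0106%), and 3.59% had an unadjusted p below 0.05. Arrays did not overlap for Hilpda (MK4 higher, as for 17.5% of all tested genes) and for Lpl (MK4 lower, as for 12.7%). The adjusted p in limma was 0.365 for Lpl and 0.999 for each of the other 8.

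In the last step, MK6 against MK4, none of the 9 was called by limma, and 5 had an unadjusted p below 0.05, against 10.5% of all tested genes. Over all tested genes 2 were called (0.0213%). This step shares the MK6 arrays with the comparison used in the choice, so nothing is read from its counts. Plpp3 and Plin2 were higher on every MK6 array, as were 14.8% of all tested genes, and Fabp4 was lower on every MK6 array, as were 9.82%. MK6 against MK3 was added after the MK3 maxima were seen and reuses the MK6 arrays, so its counts only restate that pattern and nothing is read from them. It had 1 gene called higher (Hilpda, 3.54 ± 0.50; 0.724% of all tested genes) and 2 called lower (Lpl, -2.07 ± 0.30, and Fabp4, -2.59 ± 0.48; 1.75% of all). The arrays did not overlap for 3 genes higher in MK6 (Hilpda, Plpp3 and Plin2; 19.3% of all tested genes) and for the same 2 lower ones (12.4%).

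Across the 9 arrays Hilpda, Plpp3 and Plin2 varied together, and so did Lpl with Fabp4 and Fabp5. Pearson's r of log2 signal was 0.92 for Hilpda with Plpp3, 0.91 for Hilpda with Plin2 and 0.94 for Plpp3 with Plin2. It was 0.88 for Lpl with Fabp4 and 0.86 for Lpl with Fabp5. Over the 9 pairs across these sets it ran from -0.22 (Fabp4 with Hilpda) to 0.54 (Fabp5 with Plpp3), with -0.10 for Lpl with Hilpda and 0.23 for Lpl with Plpp3. Cd36 and Abca1 correlated most closely of all pairs, at 0.97. The sets were not separate from the remaining genes, which correlated with members of both. With Plpp3, r was 0.90 for Abca1, 0.88 for Cd36 and 0.73 for Abcg1. With Fabp5, it was 0.78 for Abca1, 0.78 for Cd36 and 0.86 for Abcg1. These values describe 9 arrays that share their stages, with no test attached.

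For the 4 genes with the widest range of stage means, the 3 most alike of the other 9396 tested genes were taken by the same correlation. For Hilpda they were Fbxo32 (0.975), which encodes a ubiquitin ligase subunit, Tuft1 (0.973) and Kcmf1 (0.970). Plpp3 was most like the kinase gene Sgk1 (0.983), the myeloid lectin gene Clec4d (0.975) and the macrophage elastase gene Mmp12 (0.974). Lpl had Ehbp1l1 (0.976), S100a10 (0.965) and the macrophage mannose receptor gene Mrc1 (0.962) nearest to it. Nearest to Fabp4 were the Fc receptor gene Fcgr1, the messenger RNA editing enzyme gene Apobec1 and Lgals3bp, each at 0.978. A correlation above 0.9 was found with 98 genes for Hilpda, 126 for Plpp3, 34 for Fabp4 and 16 for Lpl.

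Macrophages use most of the same lipid genes, and their markers did not move as a block either. The summed scaled signal of 23 macrophage markers was 13659 to 16209 in MKP, 25028 to 47908 in MK3, 18735 to 28565 in MK4 and 20992 to 46634 in MK6. A few bright genes held much of this sum: on MK6 replicate 1 Lyz2 read 12479, Gpnmb 11263 and Ctss 7658. Of the 22 tested, 5 rose from MKP to MK6 (Cd68, Ctss, Mmp12, Mertk and Gpnmb) and 1 fell (Itgam) in limma. Of all tested genes 2.76% rose and 2.94% fell by the same test. From MKP to MK3 only Mrc1 was called, higher, in a step where 0.0532% of all tested genes were called. An unadjusted p below 0.05 in limma was found there for 14 of the 22, against 9.91% of all tested genes. The median difference of the 22 was 1.66, against -0.039 over all tested genes. From MK3 to MK6, Mmp12 rose and 8 fell: Adgre1, Csf1r, Mrc1, Fcgr1, C1qa, C1qb, C1qc and Axl. Of all tested genes 0.724% rose and 1.75% fell in that comparison. The complement gene C1qb read 177 and 175 in MKP, 991 and 836 in MK3, 298 and 634 in MK4, and 6.30 to 110 in MK6, highest on both MK3 arrays as Lpl was. C1qa read 708 and 844 in MK3 but 335 and 963 in MK4, where replicate 2 was the highest of all arrays, and 6.06 to 157 in MK6. Mmp12 shared the MK6 maximum of Hilpda and Plpp3, at 5.66 and 11.6 in MKP and 447 to 1418 in MK6. The part of these markers in the lipid gene differences was not tested.

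**Figure D3:**
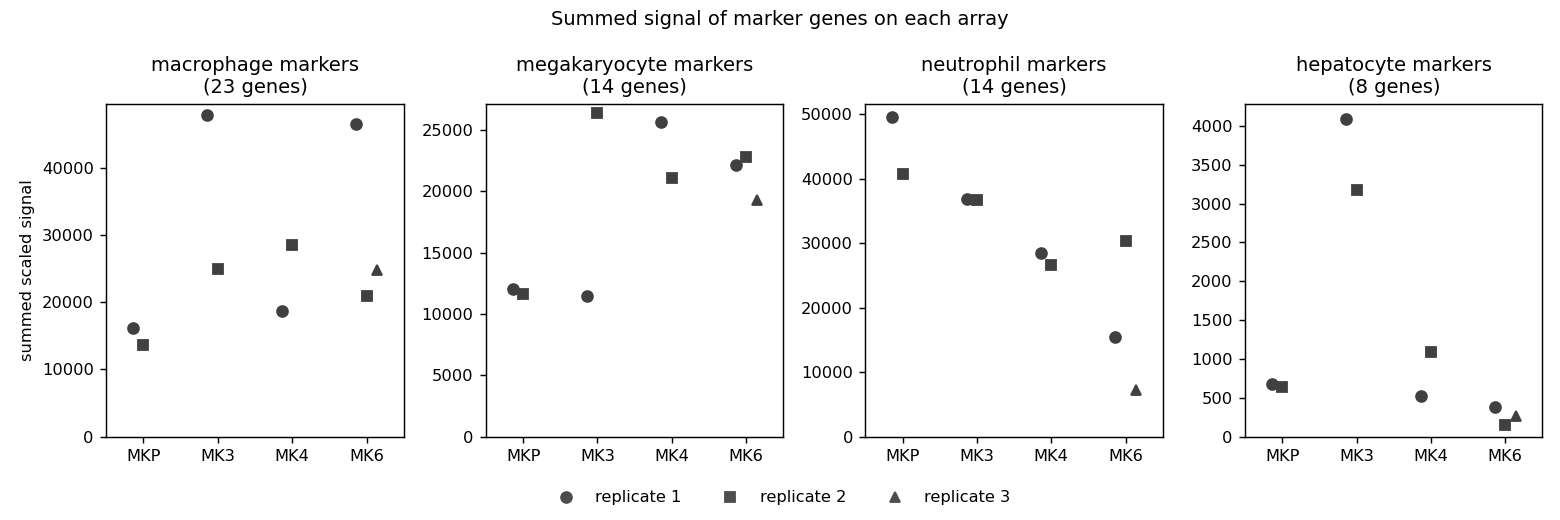
Summed scaled signal of 4 marker lists on each of the 9 arrays by stage, 1 point per array, each panel with its own axis from 0. The macrophage sum is highest on MK3 replicate 1 (47908) and MK6 replicate 1 (46634), and the hepatocyte sum is highest on the MK3 arrays (4092 and 3171).

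Hepatocyte markers were also highest in MK3, where Lpl and Fabp4 peaked. Their summed signal over 8 genes was 4092 and 3171 in MK3, 636 and 672 in MKP, 527 and 1089 in MK4, and 150 to 377 in MK6. Ttr, a plasma carrier made by liver, was the only 1 of the 8 called from MKP to MK3 (3.45 ± 0.38, adjusted p = 0.00624 in limma). In that step 0.0532% of all tested genes were called. An unadjusted p below 0.05 in limma was found for 7 of the 8, against 9.91% of all tested genes. The median difference of the 8 was 1.87, against -0.039 over all tested genes. The part of the hepatocyte markers in the lipid gene values was not tested. Of the adipocyte markers 6 were on the array, with a summed signal of 161 to 368. The defining genes Adipoq and Lep read at most 9.11 and 13.2, below the filter on all 9 arrays, while Retn read 79.4 to 195 and Lipe 40.4 to 125. The neutrophil marker sum read 49508 and 40652 in MKP and 15392, 30260.3 and 7160.5 in MK6, where replicate 2 was highest. From MKP to MK6, 6 of the 14 neutrophil markers fell in limma, as did 2.94% of all tested genes. MK6 replicate 2 was also the lowest MK6 array for Cd36, Hilpda, Plpp3, Plin2, Abca1 and Abcg1 on the probe sets used, but not for Lpl, Fabp4 or Fabp5. The part of the neutrophil markers in these values was not tested.

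Further genes were taken from 9 lists, 8 of lipid handling and its regulators and 1 of hypoxia-regulated genes, chosen with earlier results of these arrays known, that hold none of the 10 genes. Of 177 listed genes 148 were on the array and 121 were tested. From MKP to MK6, 5 rose and 2 fell in limma, 5.79% of those tested, against 5.69% of all tested genes. The rises were those of Vldlr, Cav1, Lpin1, Lpin2 and Vegfa and the falls those of Cebpd and Egln1. The median difference of all 121 was 0.18, against 0.13 over all tested genes. An unadjusted p below 0.05 in limma was found for 40 of the 121, against 23.8% of all tested genes. Without MK6 replicate 2 the count of calls was 16, when 11.6% of all tested genes were called. Without MKP replicate 1 it was 0 and without MKP replicate 2 it was 1, when 0.0319% and 0.223% of all were called.

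**Figure D4:**
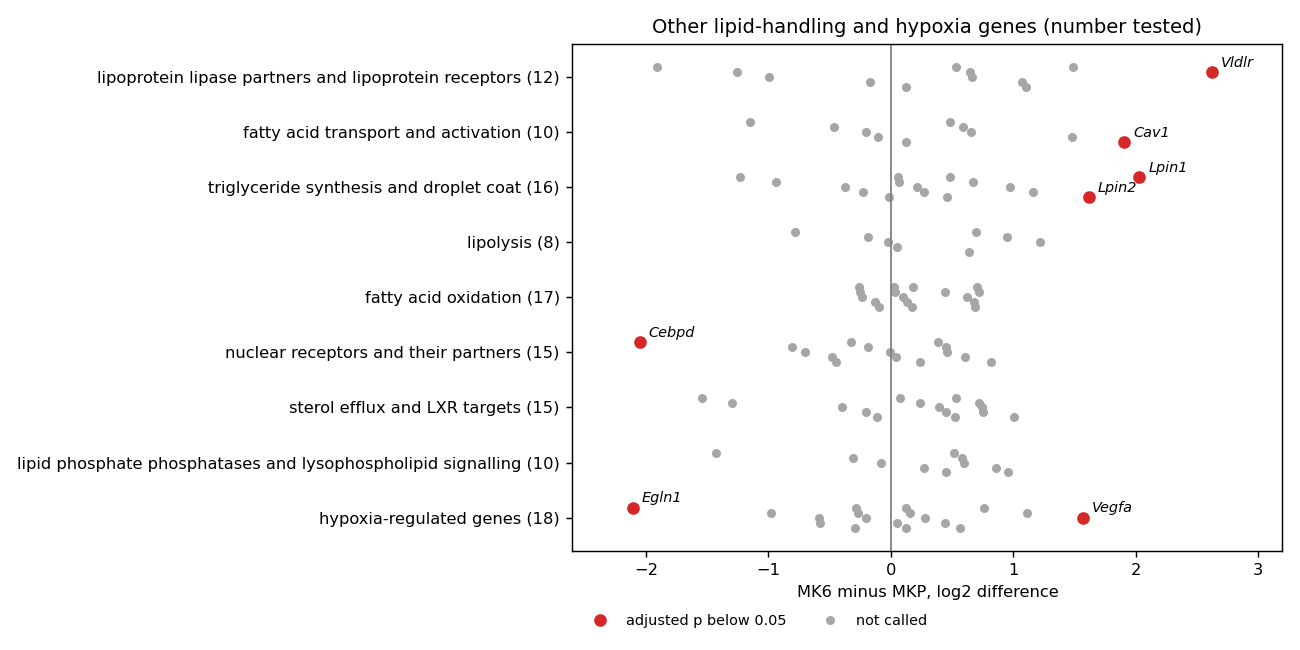
MK6 minus MKP log2 difference of the 121 tested genes of the 9 lists, 1 point per gene, with the number tested beside each list name. Red points are the 7 genes called by limma at an adjusted p below 0.05, 5 to the right of 0 and 2 to the left. None of the 17 fatty acid oxidation genes is called, and the largest difference among them is 0.72 (Etfdh).

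Among partners of lipoprotein lipase and lipoprotein receptors (12 tested, 1 rose), Vldlr, the very low density lipoprotein receptor, was the gene called. It read 99.5 and 93.6 in MKP, 55.3 and 219 in MK3, 395 and 309 in MK4, and 456, 784 and 857 in MK6, with all MK6 arrays above all others. The MK6 minus MKP difference was 2.63 ± 0.44 (adjusted p = 0.0106 in limma), and of its other 3 probe sets 1 was called (2.26) and the remaining ones gave 1.28 and 0.83. The oxidised lipoprotein receptors Olr1 (-1.91 ± 0.59) and Msr1 (1.49 ± 0.50) did not pass.

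Among fatty acid transport and activation genes (10 tested, 1 rose), Cav1, which encodes the caveolar coat protein, passed. It read 60.02 and 49.4 in MKP, 83.3 and 67.0 in MK3, 85.5 and 94.5 in MK4, and 350, 166 and 255 in MK6. The MK6 arrays lay above all others, and the MK6 minus MKP difference was 1.91 ± 0.30 (adjusted p = 0.00913 in limma). Fabp7 (1.48 ± 0.47) and the fatty acid transporter Slc27a4 (-1.15 ± 0.31) did not pass.

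In triglyceride synthesis and droplet coating (16 tested, 2 rose), both calls were lipins, phosphatases that make diacylglycerol for triglyceride. Lpin1 read 36.3 and 75.6 in MKP, 81.7 and 64.8 in MK3, 116 and 122 in MK4, and 237, 294 and 265 in MK6, so that each MK6 array lay above all others, and the difference was 2.03 ± 0.28 (adjusted p = 0.00582 in limma). A second Lpin1 probe set was called as well, at 1.53. Lpin2 read 354 and 298 in MKP and 1283, 961 and 883 in MK6, a difference of 1.62 ± 0.28 (adjusted p = 0.0113 in limma), but its other probe sets gave 0.78 and -0.47 and were not called. Mogat2, an acyltransferase, gave -1.23 ± 0.47 and did not pass.

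No gene of lipolysis (8 tested), fatty acid oxidation (17), sterol efflux and LXR targets (15) or lysophospholipid signalling (10) was called from MKP to MK6 in limma; 3, 4, 4 and 3 of them had an unadjusted p below 0.05, as had 23.8% of all tested genes. The largest differences in lipolysis were those of the lysosomal lipase gene Lipa (1.22 ± 0.35), Mgll (0.95 ± 0.44) and Lipe (-0.79 ± 0.30). In oxidation they were Etfdh (0.72 ± 0.30), Acadvl (0.71 ± 0.25) and Acads (0.69 ± 0.31). The desaturase genes Scd2 (-1.54 ± 0.40) and Scd1 (-1.29 ± 0.45) led the sterol list, with Mylip (1.01 ± 0.34), which encodes a ligase for lipoprotein receptors. Scd2 had an adjusted p of 0.0508 in limma, and 2 further probe sets of it, called over all probe sets, gave -3.03 and -2.80. In lysophospholipid signalling the largest were Sgpp1 (-1.42 ± 0.39), S1pr1 (0.96 ± 0.35) and Lpar1 (0.86 ± 0.28).

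Among nuclear receptors and their partners (15 tested, 1 fell), Cebpd, an early adipogenic transcription factor, was lower in MK6. It read 340 and 387 in MKP and 84.5, 167 and 26.5 in MK6, a difference of -2.05 ± 0.47 (adjusted p = 0.0318 in limma). A second Cebpd probe set gave -0.72 and was not called, and the first lost its call without MK6 replicate 3 (-1.49). Mlxipl (0.82 ± 0.40) and Rxrb (-0.81 ± 0.22) did not pass, and the receptors Ppara and Ppard were below the filter on all arrays, at 1.69 to 8.23 and 1.53 to 3.55.

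Of 18 tested hypoxia-regulated genes 1 rose and 1 fell. Vegfa, the endothelial growth factor, read 112 and 144 in MKP, 84.4 and 198 in MK3, 219 and 447 in MK4, and 514, 290 and 455 in MK6; MK4 overlapped MK6, as it did for Hilpda. The difference from MKP to MK6 was 1.57 ± 0.39 (adjusted p = 0.0419 in limma), but a second Vegfa probe set gave 0.0076, and the call was lost without MK6 replicate 1 (1.41) or MK6 replicate 3 (1.49). Egln1, a prolyl hydroxylase that marks hypoxia-inducible factors for decay, gave -2.10 ± 0.48 (adjusted p = 0.0301 in limma), with -0.53 on its second probe set, and Ndrg1 (1.12 ± 0.31) did not pass.

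In the single steps no gene of the 9 lists was called by limma. An unadjusted p below 0.05 was found for 18 of the 121 in MK3 against MKP, 8 in MK4 against MK3 and 15 in MK6 against MK4. Over all tested genes the shares were 9.91%, 3.59% and 10.5%.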

How the data were processed

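RNA of 9 arrays was copied from an oligo-dT primer, so probe sets near the 3' end are favoured. The values deposited by the authors were linear intensities. MAS5 made them, per the submitters' processing notes. Its version and settings were not given in the sources used here. The platform annotation paired 20380 of 22690 probe sets with 1 gene and 691 with several, which were left out, as were 64 controls and 1555 without a name. Trimmed means (2% off each end) ran from 102 to 221, so arrays were scaled to a common 161, a step that hides any change in total RNA per cell. Values were log2(scaled signal + 15.2), the 20th percentile. Probe sets above 46.7 (40th percentile) on 2 or more arrays were kept, and the one of highest mean per gene was tested.

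All arrays entered 1 limma 3.58.1 fit in R 4.3.3 with a mean per stage (lmFit, eBayes with trend, 5 residual degrees of freedom). Calls needed a Benjamini-Hochberg adjusted p below 0.05 over 9397 genes, and p-values for single probe sets were adjusted over 14516. The fit was tested on simulated data. The 10 genes and all lists were chosen with earlier results of these data known. Named were the 10 genes, the 3 tested genes of each pathway list whose MK6 minus MKP difference was largest in size, the 3 most alike genes of the 4 members of widest range, and defining markers; Ppara, Ppard, Ttr, Retn, C1qa, C1qb and Mmp12 were named after their values were seen. Endothelial, erythroid, mast cell and fibroblast lists were summed too and had sums of 962 to 1704, 438 to 721, 647 to 2367 and 324 to 737. Alternatives covered the pseudocount, filter, scaling, probe set choice, variance model and arrays left out. The number of arrays limits the precision.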

Additional observations from a re-analysis of the deposited data

How the results depend on the processing

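With 2 or 3 arrays a stage, single calls were fragile. Over 23 alternatives, 1 of them (leaving out MK6 replicates 1 and 3) added after seeing the data, the MK6 minus MKP differences of the 9 tested genes gave 207 values: none reversed, 29 lost the call and 2 gained it. For the 27 named pathway genes, 614 values held 37 losses, 41 gains and 3 reversals: Ndrg1 at -1.26 and Lpin2 at -0.47 with the probe set of largest variance, and Mlxipl at -0.022 without MK6 replicates 1 and 3. Dim probe sets near the pseudocount, such as those of Pparg, have no reliable fold. In the single steps some small differences changed sign: Hilpda from MKP to MK3 kept its sign in 18 of 23 alternatives, Cd36, Fabp5 and Abca1 from MK3 to MK4 in 22 each, and from MK4 to MK6 Lpl, Fabp5 and Abca1 in 19 each and Abcg1 in 20.

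The count of lipid genes called from MKP to MK6 (6) was 3 on unscaled values (2.13% of all genes called), 0 to 6 with single arrays left out (0.0319% to 11.6%), 8 without MK6 replicates 2 and 3 (20.5%), and 1 without MK6 replicates 1 and 3 (0.521%). For pathway genes (7) it was 0 to 16, 33 and 1 in the last 3 of these settings. From MKP to MK3 the lipid gene count (1) was 2 with a pseudocount of 50 (0.213% of all genes), 2 unscaled (0.16%), 5 in a fit to the 2 stages only (2.22%), 0 to 3 with single arrays left out (0% to 1%), and 3 without MK6 replicates 2 and 3 (0.607%) or 1 and 3 (0.617%); the pathway count (0) was 5 in the fit to the 2 stages. From MK3 to MK4 the lipid gene count (0) was 1 without either pair of MK6 arrays (0.0426%). From MK4 to MK6 the lipid gene count (0) was 2 and the pathway count (0) was 4 without MK6 replicates 2 and 3 (3.65%), the latter 0 to 2 with single arrays left out. A stage left with 1 array was assumed to vary like the others. Causes of these shifts were not tested. The median of all genes moved by over 0.1 under 2 scalings: by -0.12 (MK6 minus MKP) and -0.11 (MK4 minus MK3) with a common median, and unscaled by -0.33 (MK6 minus MKP), 0.24 (MK4 minus MK3) and -0.60 (MK6 minus MK4). No paired analysis was possible because array numbers are given only for MK6.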
